A study of Mus musculus with 40 samples.

Results

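Amino acid catabolism enzymes are the liver enzymes that break amino acids down for fuel, for glucose synthesis or for disposal of their nitrogen, and 9 of their genes were described here: *Tat*, *Hpd*, *Hgd*, *Fah*, *Hal*, *Sds*, *Agxt*, *Aass* and *Prodh*. They were chosen by gene symbol among the 21448 gene symbols that the assay probes named, and all 9 had enough reads to be tested. The livers came from wildtype Crl:CD1(ICR) mice, an outbred stock, that were dosed by oral gavage for 90 days with GenX, the ammonium salt of a short-chain perfluoroalkyl ether acid. Doses were 0 (deionized water, the vehicle of all groups), 0.1, 0.5 and 5 mg/kg body weight per day, with 5 males and 5 females at each dose, which gave 8 groups and 40 mice. The sources used here give no age. RNA was read from 1 formalin-fixed, paraffin-embedded liver section per mouse by TempO-Seq, in which pairs of short oligonucleotides are joined on a matching RNA and the joined probes are counted. The study asked whether activation of the receptor PPARα and other signals accompany the liver changes seen with GenX, and it compared each dose with controls of the same sex.

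The liver is the main site where the body degrades most amino acids. Tyrosine is broken down in the order *Tat*, *Hpd*, *Hgd* and *Fah*, histidine enters its route through *Hal*, lysine through *Aass* and proline through *Prodh*, while *Sds* and *Agxt* act on serine, glyoxylate and their relatives. Many of these genes are switched on by fasting hormones, and several are expressed most in the hepatocytes around the portal vein.

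One female at 0.5 mg/kg, animal 355, was left out because its library held 6711981 reads, more than 2 SD below the mean depth, and the other 39 libraries held 10341341 to 15562253 reads. The histogram of low probe counts peaked at 20.8 to 49.8 reads, taken as the reads that 1 captured molecule gave in a library. On that estimate, which was not tested, the libraries rested on 287244 to 656743 molecules. Males at 5 mg/kg had 483008 to 656743 against 287244 to 369995 in male controls. Y-linked probes had reads in 20 of 20 male libraries and in 0 of 20 female libraries. The hepatocyte markers *Alb* and *Ttr*, which encode secreted plasma proteins, differed from control at 5 mg/kg by -0.07 and -0.16 on the log2 scale in males and by -0.22 and -0.10 in females, none past the test. Another hepatocyte marker, the fibrinogen chain *Fgb*, was lower at 5 mg/kg in both sexes, by -0.61 in males and -0.69 in females (adjusted p = 0.0011 and 0.000498). A section is bulk tissue, so fewer cells of a type and less RNA per cell cannot be told apart in any value that follows.

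Most calls came in males at 5 mg/kg. There 7 of the 9 enzymes were lower than in control males (*Hpd*, *Fah*, *Hal*, *Sds*, *Agxt*, *Aass* and *Prodh*) and 0 were higher, by edgeR's quasi-likelihood test at a false discovery rate of 10% over all probes. Of all 12412 genes tested, 3.75% were called lower in that comparison. The median log2 fold change of the 9 enzymes was -1.08, against 0.11 over all genes tested. In females at 5 mg/kg 4 of the 9 were lower (*Hpd*, *Hal*, *Agxt* and *Prodh*) and 0 higher, where 2.00% of all genes were called lower, and the median was -0.72 against -0.01 over all genes. At 0.5 mg/kg, 1 of 9 was lower in males (*Agxt*), against 0.733% of all genes. In females at 0.5 mg/kg 0 of 9 were called by edgeR or by DESeq2, and edgeR called 0.0242% of all genes lower. There 5 of the 9 had an unadjusted p under 0.05, as had 1220 of the 12412 genes. At 0.1 mg/kg 0 of 9 were called in either sex by either tool, and 0% of all genes were called lower. An unadjusted p under 0.05 was found for 0 of 9 in either sex, against 1598 of the 12412 genes in males and 1191 in females.

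**Figure D1:**
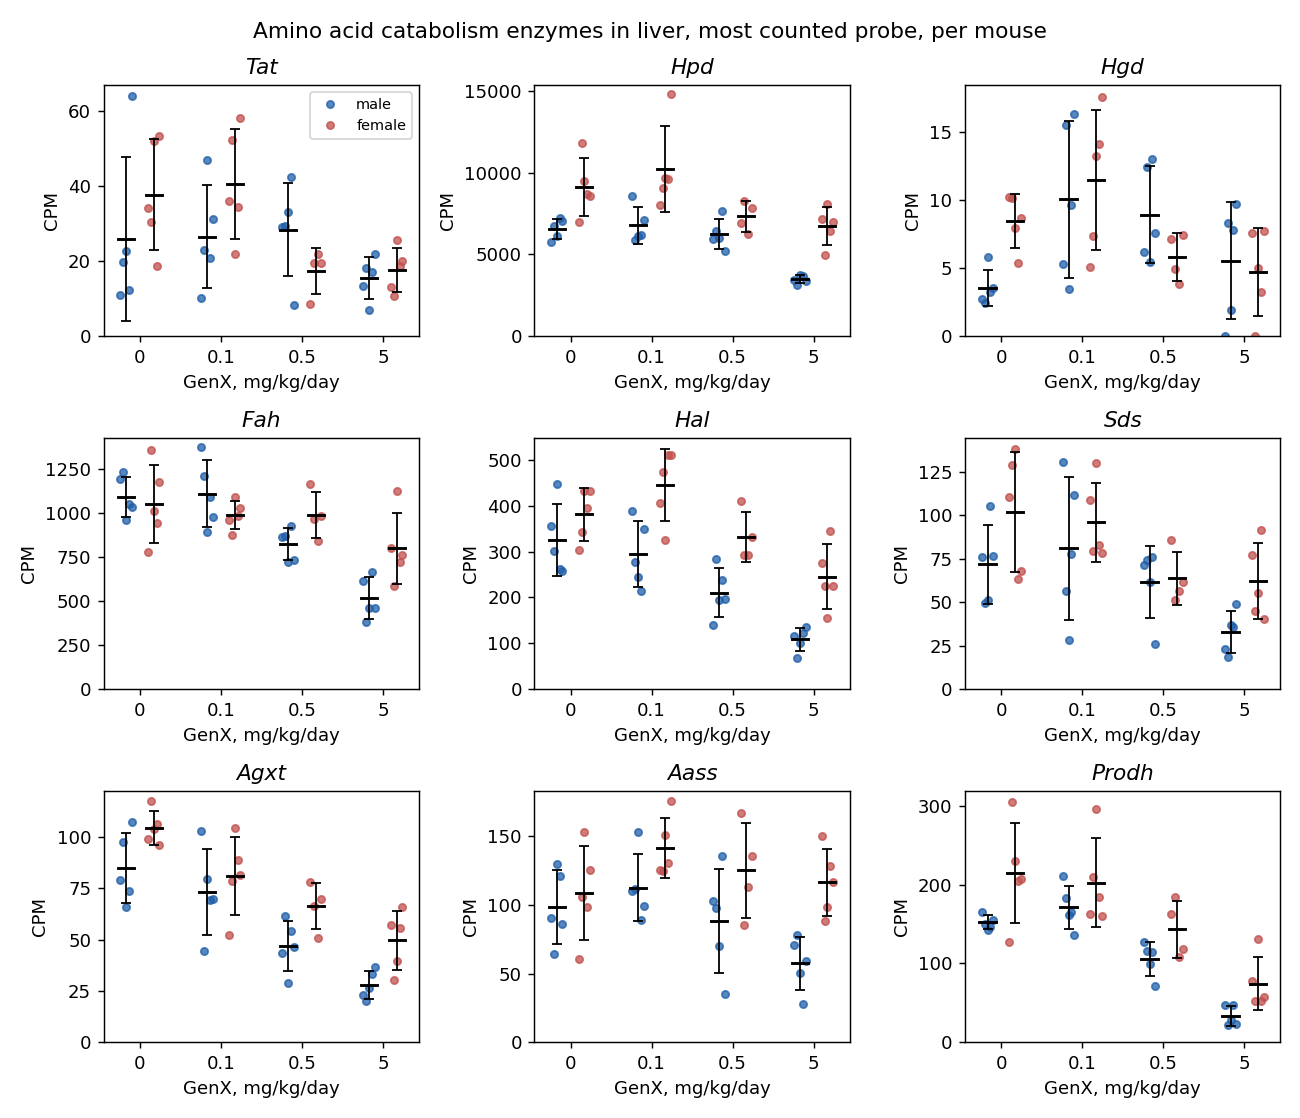
Level of each enzyme in CPM (probe counts scaled to a common library total) of its most counted probe (vertical axis, starting at 0) against the GenX dose in mg/kg body weight per day (horizontal axis); each point is 1 mouse, blue for males and red for females, and the bars give the mean and SD of 4 or 5 mice. In males at 5 mg/kg every point lies below every male control for *Hpd*, *Fah*, *Hal*, *Sds*, *Agxt* and *Prodh*, while *Tat* and *Hgd* overlap.

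**Figure D2:**
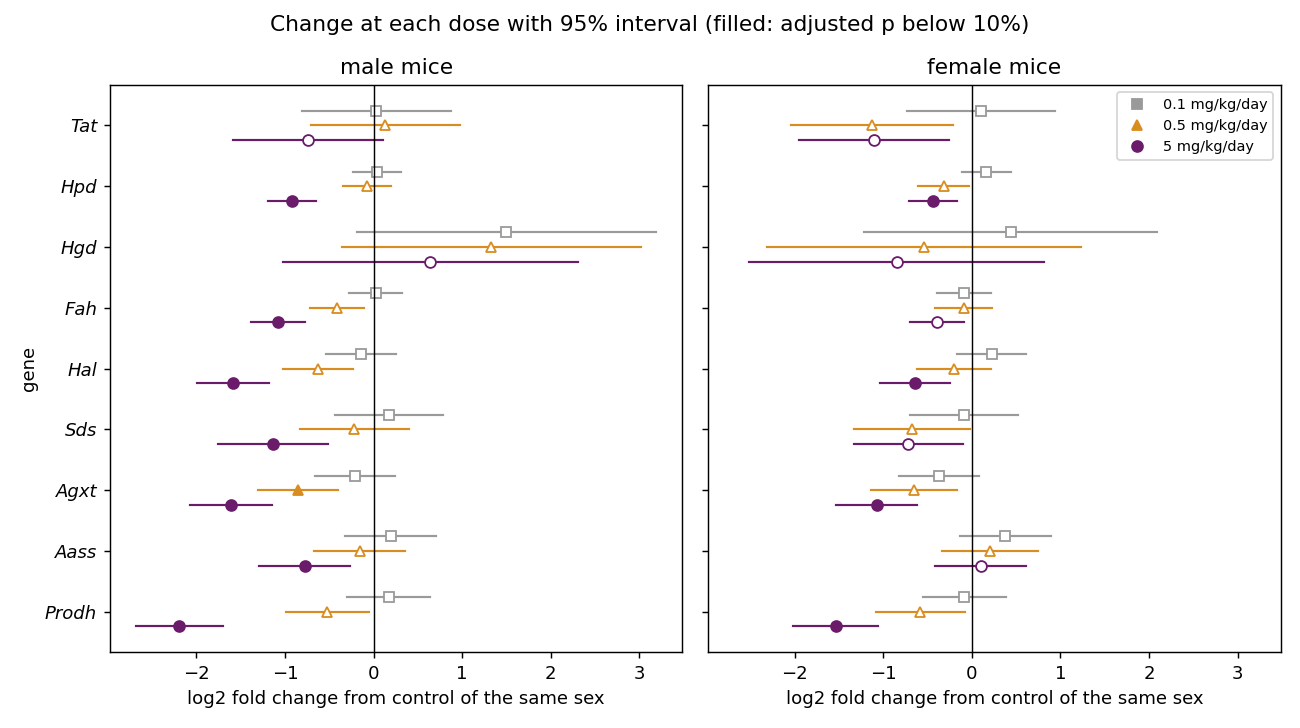
Log2 fold change from control of the same sex (horizontal axis) for each enzyme (vertical axis) at 0.1, 0.5 and 5 mg/kg, males left and females right, with 95% intervals; filled symbols passed an adjusted p of 10%. *Prodh* has the lowest value at 5 mg/kg in both sexes, -2.19 in males and -1.53 in females, and the 0.1 mg/kg values lie between -0.37 and 0.44 except for *Hgd* in males at 1.5.

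Separation of the mice was counted apart from the test. In males at 5 mg/kg, every treated mouse was below every control for 6 of the 9 enzymes, against 3.38% of all genes tested. In males at 0.5 mg/kg this held for *Fah*, *Agxt* and *Prodh*, 3 of 9, against 1.27% of all genes. In females it held only for *Agxt*, 1 of 9 at 5 mg/kg against 1.58% of all genes and 1 of 9 at 0.5 mg/kg against 0.830%. The mean log2 CPM of the 9 enzymes per mouse summarised the same values: over the male groups, from the controls to the top dose, it was 7.07 ± 0.14, 7.24 ± 0.15, 6.90 ± 0.38 and 5.92 ± 0.32 (SD, n = 5 each). In females it was 7.51 ± 0.24, 7.59 ± 0.18, 7.08 ± 0.15 (n = 4) and 6.69 ± 0.47 (n = 5 for the others). All 5 males at 5 mg/kg, from 5.52 to 6.29, were below the lowest control male at 6.93.

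The tyrosine pathway begins with *Tat* (tyrosine aminotransferase, chr8:109990437-109999803, plus strand, GRCm38), a classic target of glucocorticoids and glucagon. Its single probe was thinly counted, with 90 to 829 reads or 3.05 to 26.2 molecules per library. Control males read 10.8, 19.8, 22.6, 12.1 and 63.9 CPM, and males at 5 mg/kg 13.2, 18.1, 6.86, 17.1 and 21.9 CPM. The control at 63.9 CPM stood apart, and the groups overlapped; the log2 fold change was -0.74 (SE 0.42, adjusted p = 0.319), and -0.08 (adjusted p = 1) without that control, animal 105. Control females read 34.1, 30.4, 51.8, 18.7 and 53.3 CPM, and females at 5 mg/kg 12.9, 10.6, 25.6, 18.7 and 19.9 CPM, with 3 of the 5 treated mice below every control. The log2 fold change in females was -1.10 (SE 0.42, adjusted p = 0.218) at 5 mg/kg and -1.12 (SE 0.45, adjusted p = 0.485) at 0.5 mg/kg, the latter -0.47 (adjusted p = 1) with animal 355 put back. *Tat* passed the test in neither sex, with 95% intervals of -1.58 to 0.10 in males and -1.95 to -0.26 in females at 5 mg/kg.

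*Hpd* (4-hydroxyphenylpyruvate dioxygenase, chr5:123171807-123182727, minus strand, GRCm38), the second enzyme, forms homogentisate and is the target of the drug nitisinone. With 47689 to 176054 reads per library its counts were the deepest of the 9. Male controls read 5763, 6714, 6118, 7198 and 7054 CPM. Males at 5 mg/kg read 3433, 3114, 3737, 3689.7 and 3358 CPM, a narrow set that lay entirely below the controls. This was a log2 fold change of -0.92 (SE 0.14, adjusted p = 1.76e-06), or a level 0.528 times that of controls. Males at 0.1 and 0.5 mg/kg did not differ from control beyond their spread, at 0.04 (SE 0.14, adjusted p = 1) and -0.08 (SE 0.14, adjusted p = 1). Female controls read 6975, 11806, 9506, 8707 and 8554 CPM and females at 5 mg/kg 7146, 4951, 8083, 6447 and 6964 CPM, with 3 of 5 treated mice below every control. That difference was -0.44 (SE 0.14, adjusted p = 0.0688), and it missed the threshold without any of 5 mice: -0.33 without control 152 (adjusted p = 0.311), -0.42 without control 153 (0.143), -0.35 without treated female 452 (0.276), -0.42 without 454 (0.153) and -0.45 without 455 (0.105). It was also lost with DESeq2 (adjusted p = 0.101), with its size factors in edgeR (0.104), with animal 355 put back (0.691) and with the 2 groups fitted alone (0.186).

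The third enzyme, *Hgd* (homogentisate 1,2-dioxygenase, chr16:37580153-37632020, plus strand, GRCm38), opens the ring of homogentisate and is the gene mutated in alkaptonuria. Its single probe gave 0 to 211 reads, a median of 2.61 molecules per library. Control males read 2.75, 2.39, 5.77, 3.25 and 3.52 CPM and males at 5 mg/kg 0, 8.32, 1.91, 7.74 and 9.65 CPM, so the treated mice lay both above and below the controls. Fitted over all mice it was 0.64 on the log2 scale, with a 95% interval of -1.02 to 2.31 (adjusted p = 0.928). In females at 5 mg/kg it was -0.85 with an interval of -2.51 to 0.82 (adjusted p = 0.925).

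*Fah* (fumarylacetoacetase, chr7:84585159-84606722, minus strand, GRCm38) is the last enzyme of tyrosine breakdown, and its loss causes hereditary tyrosinemia type 1. Male controls read 1192, 1232, 959.8, 1049.5 and 1033 CPM. Males at 0.5 mg/kg read 863, 873, 723, 929 and 732 CPM and males at 5 mg/kg 613, 379, 464, 668 and 464 CPM. Both dosed groups lay wholly below the controls. Their log2 fold changes were -0.41 (SE 0.15, adjusted p = 0.22) at 0.5 mg/kg, which did not pass, and -1.08 (SE 0.15, adjusted p = 7.1e-07) at 5 mg/kg. Female controls spread more widely, at 779, 1359, 1010.4, 942 and 1178 CPM, and females at 5 mg/kg read 803, 588, 1128, 721 and 761 CPM. Female 453, the highest of that group at 1128 CPM, lay among the controls. The female log2 fold change was -0.40 (SE 0.15, adjusted p = 0.216) with all mice, -0.55 (adjusted p = 0.029) without female 453, and -0.49 (adjusted p = 0.0873) without control 151, the lowest control.

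*Hal* (histidine ammonia-lyase, chr10:93488768-93519304, plus strand, GRCm38) removes ammonia from histidine to form urocanate, and its loss causes histidinemia. Control males read 356, 301, 447, 263 and 257 CPM, and males at 0.5 mg/kg 139, 283, 195, 239 and 196 CPM. Males at 5 mg/kg read 115, 67.4, 102, 122 and 134 CPM, all below every control and every mouse at 0.5 mg/kg. At the top dose *Hal* fell by 1.59 on the log2 scale (SE 0.20, adjusted p = 4.94e-08), to a level 0.333 times that of controls. At 0.5 mg/kg it was -0.62 (SE 0.20) with an adjusted p of 0.104, just outside the threshold, and it passed without control 104 (-0.69, adjusted p = 0.0904), without control 105 (-0.70, adjusted p = 0.0824) or without treated male 302 (-0.75, adjusted p = 0.0479). Female controls read 304, 342, 433, 395 and 433 CPM and females at 5 mg/kg 275, 226, 155, 346 and 224 CPM. In females 4 of 5 treated mice lay below every control, and the log2 fold change was -0.64 (SE 0.20, adjusted p = 0.0673). That call was lost without any of 6 mice: control 153 (-0.59, adjusted p = 0.169), control 154 (-0.62, 0.124), control 155 (-0.59, 0.171), and treated females 452 (-0.61, 0.148), 453 (-0.51, 0.248) and 455 (-0.61, 0.154). It was lost as well with animal 355 put back (adjusted p = 0.283) and with the 2 groups fitted alone (0.109).

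The promoter windows shown are those of *Prodh*, *Agxt* and *Hal*, the 3 enzymes that fell most in males at 5 mg/kg. Windows run from 250 bases before to 50 bases after the transcription start in RefSeq on GRCm38.p6, written 5′ to 3′ on the strand of the gene, and 8 of the 9 enzymes had 1. Searched on both strands were AGGTCA, any base, AGGTCA (the direct repeat bound by PPAR and HNF4A dimers), TATAAA (the TATA box), CCAAT (the CCAAT box), TGACGTCA (the cyclic AMP response element) and the glucocorticoid response element, and no matches overlapped in these windows. In *Hal* (chr10:93488518-93488817, plus strand) the capitals mark a CCAAT box that starts 64 bases before the start site and TATAAA read on the other strand from 28 bases before it.
Hal: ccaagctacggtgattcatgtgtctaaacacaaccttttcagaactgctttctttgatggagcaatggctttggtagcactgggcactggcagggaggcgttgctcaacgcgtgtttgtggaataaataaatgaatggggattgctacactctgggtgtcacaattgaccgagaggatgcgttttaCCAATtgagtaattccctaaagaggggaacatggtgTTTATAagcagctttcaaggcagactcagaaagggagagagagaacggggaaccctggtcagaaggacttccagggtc
In *Agxt* (chr1:93134990-93135289, plus strand) and *Prodh* (chr16:18089141-18089440, minus strand) none of the searched motifs was found, so no capitals appear.
Agxt: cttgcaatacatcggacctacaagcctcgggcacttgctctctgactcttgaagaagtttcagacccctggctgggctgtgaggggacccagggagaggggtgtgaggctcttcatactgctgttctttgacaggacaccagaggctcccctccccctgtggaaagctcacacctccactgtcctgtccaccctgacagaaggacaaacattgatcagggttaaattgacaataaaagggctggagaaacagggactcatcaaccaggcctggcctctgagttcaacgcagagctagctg
Prodh: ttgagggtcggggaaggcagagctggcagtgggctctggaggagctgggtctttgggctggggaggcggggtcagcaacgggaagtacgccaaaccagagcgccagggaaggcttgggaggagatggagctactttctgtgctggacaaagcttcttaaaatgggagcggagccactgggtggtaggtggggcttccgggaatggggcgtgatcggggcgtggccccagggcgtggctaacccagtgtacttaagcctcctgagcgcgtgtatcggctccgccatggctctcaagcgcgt
CCAAT occurred in 37.4% of all 32815 promoter windows, TATAAA in 13.6%, TGACGTCA in 1.79%, the direct repeat in 0.0396% and the glucocorticoid response element in 0.00914%. Of the other enzymes, CCAAT was also in the windows of *Aass*, *Tat* and *Hgd*, and TATAAA in that of *Hgd*. A match describes letters in the window and nothing about binding, and no match says only that these letters are not in it.

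*Sds* (serine dehydratase, chr5:120476526-120483932, plus strand, GRCm38) turns serine into pyruvate and ammonia and is induced by fasting and by protein-rich food. Male controls read 76.2, 49.6, 51.3, 105 and 76.8 CPM, males at 0.5 mg/kg 71.4, 74.6, 61.7, 75.8 and 26.2 CPM and males at 5 mg/kg 23.2, 18.5, 36.7, 35.9 and 49.3 CPM. At 5 mg/kg the highest treated male was just below the lowest control. The log2 fold change there was -1.14 (SE 0.31, adjusted p = 0.0129), and at 0.5 mg/kg -0.22 (SE 0.30, adjusted p = 1). With animal 355 put back, the male value at 5 mg/kg was -1.12 with an adjusted p of 0.122. Female controls read 111, 129, 139, 63.3 and 67.8 CPM, females at 0.5 mg/kg 85.6, 51.5, 56.4 and 61.5 CPM and females at 5 mg/kg 77.2, 45.2, 55.1, 91.9 and 40.6 CPM. The dosed females overlapped the controls, and the log2 fold changes of -0.68 (SE 0.33, adjusted p = 0.485) and -0.72 (SE 0.31, adjusted p = 0.258) did not pass. With animal 355 put back the value at 0.5 mg/kg turned to 0.16 (adjusted p = 1).

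*Agxt* (alanine-glyoxylate aminotransferase, chr1:93135240-93145421, plus strand, GRCm38) also acts as serine-pyruvate aminotransferase, and its loss causes primary hyperoxaluria type 1. On the most counted probes it alone of the 9 was called below 5 mg/kg. Of 8 other settings, 6 called *Hal* in males at 0.5 mg/kg (adjusted p from 0.0193 to 0.0975), 3 called *Fah* (0.0453 to 0.0667) and 2 called *Prodh* (0.097 and 0.0976). Male controls read 79.3, 97.7, 66.01, 73.97 and 108 CPM, males at 0.1 mg/kg 103, 44.4, 79.7, 69.2 and 69.8 CPM, males at 0.5 mg/kg 43.4, 61.7, 29.05, 54.4 and 46.2 CPM and males at 5 mg/kg 22.8, 20.3, 26.2, 33.2 and 36.5 CPM. Every male at 0.5 and at 5 mg/kg was below every control. In order of dose the male log2 fold changes were -0.21 (SE 0.22, adjusted p = 1), -0.85 (SE 0.23, adjusted p = 0.0339) and -1.61 (SE 0.23, adjusted p = 8.52e-07). The call at 0.5 mg/kg was lost without control 105 (-0.76, adjusted p = 0.117), without treated male 303 (-0.72, adjusted p = 0.142) or with animal 355 put back (-0.86, adjusted p = 0.478). Female controls were tightly grouped at 98.97, 118, 104, 106 and 96.05 CPM. Females at 0.1 mg/kg read 52.4, 78.7, 104, 88.98 and 81.5 CPM, females at 0.5 mg/kg 78.2, 66.7, 51.03 and 69.8 CPM and females at 5 mg/kg 57.03, 30.5, 39.5, 55.8 and 65.8 CPM. Females at 0.5 and at 5 mg/kg lay wholly below the controls, and 4 of 5 did at 0.1 mg/kg. The female values were -0.37 (SE 0.22, adjusted p = 0.832), -0.66 (SE 0.24, adjusted p = 0.485) and -1.07 (SE 0.23, adjusted p = 0.00166) in order of dose, and only the last passed, an adjusted p of 0.322 with animal 355 put back.

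*Aass* (alpha-aminoadipic semialdehyde synthase, chr6:23072173-23132986, minus strand, GRCm38) carries out the first steps of lysine breakdown in mitochondria. Male controls read 90.4, 64.5, 129.9, 121 and 86.4 CPM and males at 5 mg/kg 70.9, 77.99, 50.6, 28.1 and 59.1 CPM, with 3 of 5 treated mice below every control. Their difference was -0.78 on the log2 scale (SE 0.26, adjusted p = 0.0571). It missed the threshold without control 103 (-0.66, adjusted p = 0.177), control 104 (-0.69, 0.151), treated male 403 (-0.74, 0.13) or treated male 404 (-0.61, 0.191), with animal 355 put back (-0.77, 0.13) and with the reads of both probes summed (-0.54, 0.151). Female controls read 60.9, 106, 153, 98.2 and 126 CPM and females at 5 mg/kg 150.2, 88.7, 98.5, 128 and 117 CPM, which overlap throughout. Their log2 fold change was 0.10 with a 95% interval of -0.41 to 0.61 (adjusted p = 1).

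*Prodh* (proline dehydrogenase, chr16:18060357-18090203, minus strand, GRCm38) takes the first step of proline breakdown at the inner mitochondrial membrane. It had the largest fall of the 9 in both sexes. Male controls were close together at 165, 150.4, 143, 146 and 156 CPM. Males at 0.5 mg/kg read 127, 116, 99.6, 115 and 71.3 CPM and males at 5 mg/kg 47.6, 21.4, 27.9, 46.9 and 22.7 CPM, and both groups lay wholly below the controls. The log2 fold change was -0.52 (SE 0.23, adjusted p = 0.259) at 0.5 mg/kg and -2.19 (SE 0.24, adjusted p = 2.13e-09) at 5 mg/kg, the latter a level 0.219 times that of controls. Female controls ranged from 128 to 304 CPM, at 128, 304, 229.8, 204 and 207 CPM. Females at 5 mg/kg read 77.4, 52.6, 131, 52.8 and 56.9 CPM, with 4 of 5 below every control and female 453 just above the lowest control. The log2 fold change in females was -1.53 (SE 0.24, adjusted p = 1.03e-05), a level 0.345 times that of controls. These calls at 5 mg/kg held in all 10 fits that left out 1 mouse in each sex, from -2.35 to -2.08 in males and from -1.84 to -1.37 in females.

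The 9 enzymes had 17 probes, and 5 of them (*Hpd*, *Fah*, *Sds*, *Aass* and *Prodh*) had more than 1. In males at 5 mg/kg 14 of the 17 probes were called lower, where 3.45% of all 17877 probes tested were, among them all probes of *Hpd*, *Fah*, *Sds* and *Prodh*. The *Prodh* probes agreed closely, at -2.19, -2.47 and -2.24 on the log2 scale. The *Hpd* probes gave -0.92, -0.99 and -1.44, and the *Fah* probes -1.08, -1.25 and -0.50. The second *Aass* probe did not pass the test: it gave -0.18 with a 95% interval of -0.70 to 0.34 (adjusted p = 0.955), where the most counted probe gave -0.78. Its mean was 65.2 ± 16.8 CPM in control males and 57.5 ± 16.4 CPM at 5 mg/kg (SD, n = 5 each). At 0.5 mg/kg in males 3 of the 17 probes were called lower, against 0.638% of all probes. Besides that of *Agxt*, the second *Fah* probe was called lower at -0.59 (SE 0.14, adjusted p = 0.0175) and so was the third *Prodh* probe at -1.08 (SE 0.32, adjusted p = 0.0773), while the third *Fah* probe gave 0.23 (adjusted p = 0.547). In females at 5 mg/kg 7 of the 17 were lower, against 1.83% of all probes, among them all 3 *Prodh* probes and the third *Fah* probe, at -0.52 (SE 0.15, adjusted p = 0.0379). Which transcripts each probe can reach is not given in the sources used here.

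**Figure D3:**
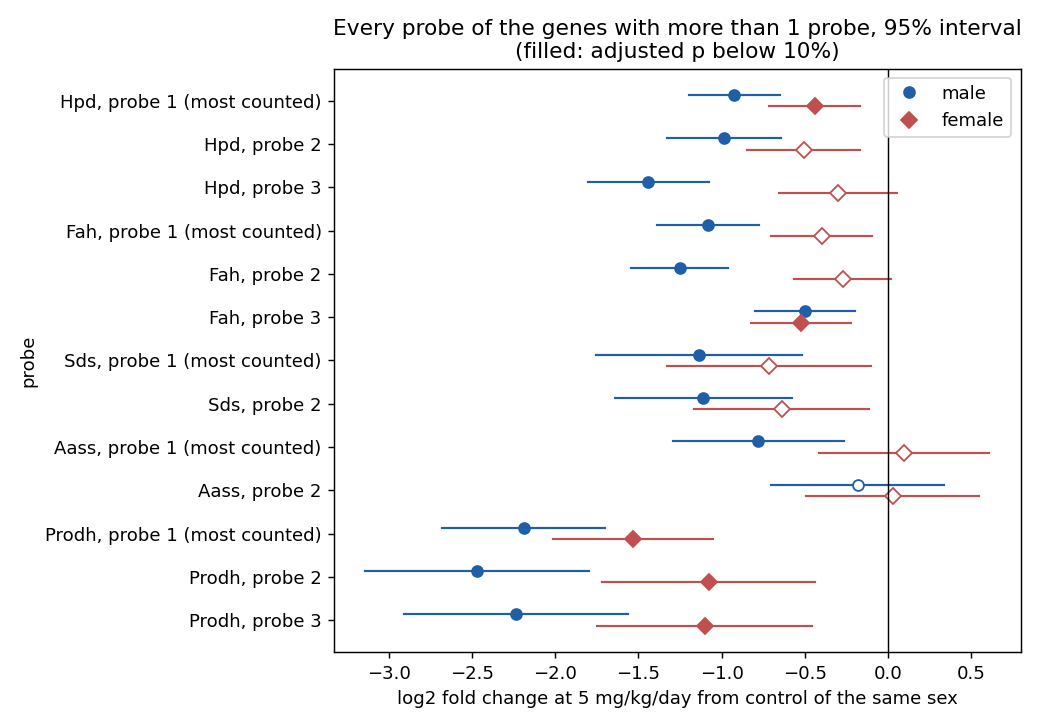
Log2 fold change at 5 mg/kg from control of the same sex (horizontal axis) for every probe of the 5 enzymes with more than 1 (vertical axis), blue circles for males and red diamonds for females, with 95% intervals; filled symbols passed an adjusted p of 10%. The 3 *Prodh* probes are filled in both sexes, and the second *Aass* probe sits at -0.18 in males and 0.03 in females.

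Whether the sexes changed by different amounts was tested as the female change minus the male change at each dose. At 5 mg/kg this difference was above 0 for 7 of the 9 enzymes, meaning a change in females that was less negative, with a median of 0.54 against -0.16 over all genes tested. It passed for 0 of 9 on the most counted probes by edgeR, where 1.19% of all genes were called in either direction. DESeq2 called 2, *Fah* and *Hal*, and its share of all genes was not counted. By edgeR 4 of 9 had an unadjusted p under 0.05, as had 1563 of the 12412 genes tested. *Hal* differed most among those 4 at 0.95 (SE 0.28, adjusted p = 0.111), and it passed without control male 104 (1.02, adjusted p = 0.0949), control male 105 (1.02, 0.0908), treated male 405 (1.04, 0.0893) or treated female 453 (1.07, 0.0562). *Fah* differed by 0.68 (SE 0.21, adjusted p = 0.126), and it passed without control female 152 (0.80, adjusted p = 0.0724), treated male 404 (0.79, 0.077) or treated female 452 (0.78, 0.0748). *Hpd* differed by 0.48 (SE 0.19, adjusted p = 0.249) and *Aass* by 0.88 (SE 0.36, adjusted p = 0.275). *Prodh* and *Agxt*, with differences of 0.66 (95% interval -0.01 to 1.32) and 0.54 (-0.10 to 1.18), were not shown to change by different amounts in the sexes.

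On other probes of the same genes the difference between the sexes did pass at 5 mg/kg. These were 2 of the 17 probes, where 186 of all 17877 probes tested were called in either direction. The second *Fah* probe differed by 0.98 (SE 0.20, adjusted p = 0.00675): males went from 615 ± 76.1 CPM in controls to 258 ± 29.1 CPM, and females from 514 ± 78.2 to 426 ± 61.4 CPM (SD, n = 5 each). The third *Hpd* probe differed by 1.14 (SE 0.25, adjusted p = 0.0124), with males at 571 ± 74.7 CPM in controls and 210.5 ± 36.7 CPM at 5 mg/kg against 597 ± 101 and 485 ± 106 CPM in females (SD, n = 5 each). The third *Fah* probe gave no such difference, at -0.03 (SE 0.21, adjusted p = 1). At 0.5 mg/kg 0 of 9 differences passed by edgeR or DESeq2, where edgeR called 0.322% of all genes. An unadjusted p under 0.05 was found for 1 (*Tat*, -1.26, SE 0.61, adjusted p = 0.448, and -0.60 with animal 355 put back), as for 1333 of 12412 genes. At 0.1 mg/kg 0 of 9 passed by either tool, and 0% of all genes were called. There 0 had an unadjusted p under 0.05, where 990 of 12412 genes did.

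In untreated mice *Hpd* was the one enzyme called between the sexes on the most counted probes. Over all 17 probes of the enzymes 2 were called higher in females, where 624 of all 17877 probes tested were called in either direction. Female controls exceeded male controls by a log2 difference of 0.47 (SE 0.14, adjusted p = 0.0461), 1 of 9 enzymes where 2.37% of all genes were called higher in females. The call was lost without control male 101 (0.43, adjusted p = 0.132), control male 103 (0.45, 0.118), control female 152 (0.36, 0.227) or control female 153 (0.46, 0.101), and with animal 355 put back (0.48, 0.534). For the other 8 enzymes the control sexes did not pass the test on the most counted probe, from -0.05 for *Fah* to 1.25 for the thinly counted *Hgd*.

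The step from 0.5 to 5 mg/kg was tested within each sex, on groups that also entered the comparisons with controls. In males 5 of 9 enzymes were lower at 5 than at 0.5 mg/kg, against 1.84% of all genes called lower: *Prodh* by -1.67 (SE 0.24, adjusted p = 3.45e-06), *Hal* by -0.96 (SE 0.20, adjusted p = 0.00174), *Hpd* by -0.85 (SE 0.14, adjusted p = 3.3e-05), *Fah* by -0.67 (SE 0.15, adjusted p = 0.00565) and *Agxt* by -0.76 (SE 0.23, adjusted p = 0.0739). With animal 355 put back the steps of *Hpd* (adjusted p = 0.313), *Fah* (0.146) and *Agxt* (0.739) no longer passed. The *Agxt* step was also lost with the 2 groups fitted alone (0.101) and in 6 of 10 fits that left out 1 mouse, over which it ran from -0.89 to -0.64. *Sds* stepped by -0.92 (SE 0.31, adjusted p = 0.139) and passed without male 305 (-1.12, adjusted p = 0.0419) or male 405 (-1.12, 0.0692), and *Aass* stepped by -0.62 (SE 0.26, adjusted p = 0.293) and passed without male 305 (-0.83, 0.0742). In females *Prodh* alone was lower, at -0.95 (SE 0.25, adjusted p = 0.041), 1 of 9 against 0.749% of all genes. That female call was lost without 351 (-0.88, adjusted p = 0.148), 352 (-0.81, 0.227), 452 (-0.84, 0.155), 454 (-0.85, 0.148) or 455 (-0.87, 0.136), with animal 355 put back (-0.77, 0.269) and with the 2 groups fitted alone (0.202).

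Within groups, some mice were lowest or highest for many of the enzymes at once, and the same count over all genes was not made. Female 452 at 5 mg/kg was the lowest of its group for 7 of the 9 (*Tat*, *Hpd*, *Hgd*, *Fah*, *Agxt*, *Aass* and *Prodh*), and male 402 at 5 mg/kg for 6 (*Hpd*, *Fah*, *Hal*, *Sds*, *Agxt* and *Prodh*). Male 305 at 0.5 mg/kg was lowest for 5 (*Tat*, *Hpd*, *Sds*, *Aass* and *Prodh*), while male 304 of that group was highest for 6. Female 452 had 320470 molecules, the median of its group. Over the 39 libraries the closest pair was *Fah* and *Prodh*, with a Pearson r of 0.92 between their log2 CPM values, and of 0.82 after the group means were taken out. The 7 enzymes other than *Tat* and *Hgd* had 21 pairs with a median r of 0.71 over all libraries and of 0.27 within groups. Over all 36 pairs of the 9 enzymes these medians were 0.52 and 0.19. The 15 pairs with *Tat* or *Hgd* ran from 0.21 to 0.49 over all libraries. These correlations describe libraries that share dose groups and total-count scaling, and they carry no test.

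The genes whose levels followed each enzyme most closely over the 39 libraries were searched among 3899 genes with a mean of at least 20 CPM, again as a description. *Prodh* was most like *Slc10a1*, the bile acid uptake transporter (r = 0.93), *Itih4*, a secreted inhibitor heavy chain (0.92), and *Fah* (0.92). *Fah* was next most like *Cyp2c54* (0.90) and *Apoh* (0.89). *Hpd* was most like *Sult1a1*, a phenol sulfotransferase (0.91), *Crp* (0.90) and *Cth*, which makes cysteine from cystathionine (0.90). *Hal* followed *Fgg*, a fibrinogen chain (0.86), *Gls2*, the liver glutaminase (0.86), and *Sult1a1* (0.85). *Agxt* followed *Serpinf2* (0.88), *Adk* (0.87) and the coagulation factor *F7* (0.86), and *Sds* followed *Pigr* (0.79), *Pxmp2* (0.79) and *Dpyd* (0.77). *Aass* had looser neighbours, among them *Mat1a* (0.66) and *Sult1a1* (0.66), and so had *Hgd* (*Ugt2b1*, 0.66) and *Tat* (*Ddi2*, 0.58).

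The other genes of the same pathways were read from lists of partner enzymes. In males at 5 mg/kg 15 of 49 tested partners were called lower, where 3.75% of all genes were, and 1 was higher, against 5.59%. Of 6 tyrosine partners 2 were lower, among them *Gstz1*, the step before *Fah* (-0.37, SE 0.13, adjusted p = 0.0828), and 1 was higher, *Pcbd1*, which helps to recycle tetrahydrobiopterin (0.39, SE 0.12, adjusted p = 0.0369). Of 3 histidine partners *Amdhd1*, which acts downstream of *Hal*, was lower (-0.85, adjusted p = 0.00032). Of 11 tested serine, glycine and glyoxylate partners 2 were lower, *Gldc* of the glycine cleavage system (-1.86, adjusted p = 1.33e-05) and *Hao1*, which makes glyoxylate from glycolate (-0.67, adjusted p = 0.000881). Among 7 lysine partners 3 were lower, led by *Pipox* (-1.29, adjusted p = 2.47e-07).

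The proline list had the largest share. There 4 of 6 partners were lower in males at 5 mg/kg, and the 3 with the smallest p were *Gls2* (-1.21, adjusted p = 1.14e-06), *Oat*, ornithine aminotransferase (-1.79, adjusted p = 0.000942), and *Hoga1* (-0.60, adjusted p = 0.00298). *Aldh4a1* (-0.24, adjusted p = 0.418) and *Prodh2* (-0.13, adjusted p = 0.953) of that list were not called. Of 16 branched-chain partners 3 were lower, with a list median of -0.10, and 0 of 3 alanine and aspartate aminotransferases were called. In females at 5 mg/kg 6 of the 49 pathway partners were lower and 2 higher, against 2.00% and 2.09% of all genes, with *Gls2* lowest in p (-1.06, adjusted p = 3.44e-05), and with *Glud1* (-0.59, adjusted p = 0.00833) and *Pipox* (-0.58, adjusted p = 0.0541) among the others. *Grhpr*, which reduces glyoxylate, was higher in females (0.77, SE 0.17, adjusted p = 0.00225). In males at 0.5 mg/kg 5 of the 49 were lower, against 0.733% of all genes, including *Amdhd1* (-0.66, adjusted p = 0.0249), *Gls2* (-0.66, adjusted p = 0.0332) and *Pipox* (-0.62, adjusted p = 0.0457), and 1 was higher, *Aadat* (0.74, adjusted p = 0.0683), against 1.88%. The lists were chosen with earlier results of these data known, and their counts are descriptions.

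**Figure D4:**
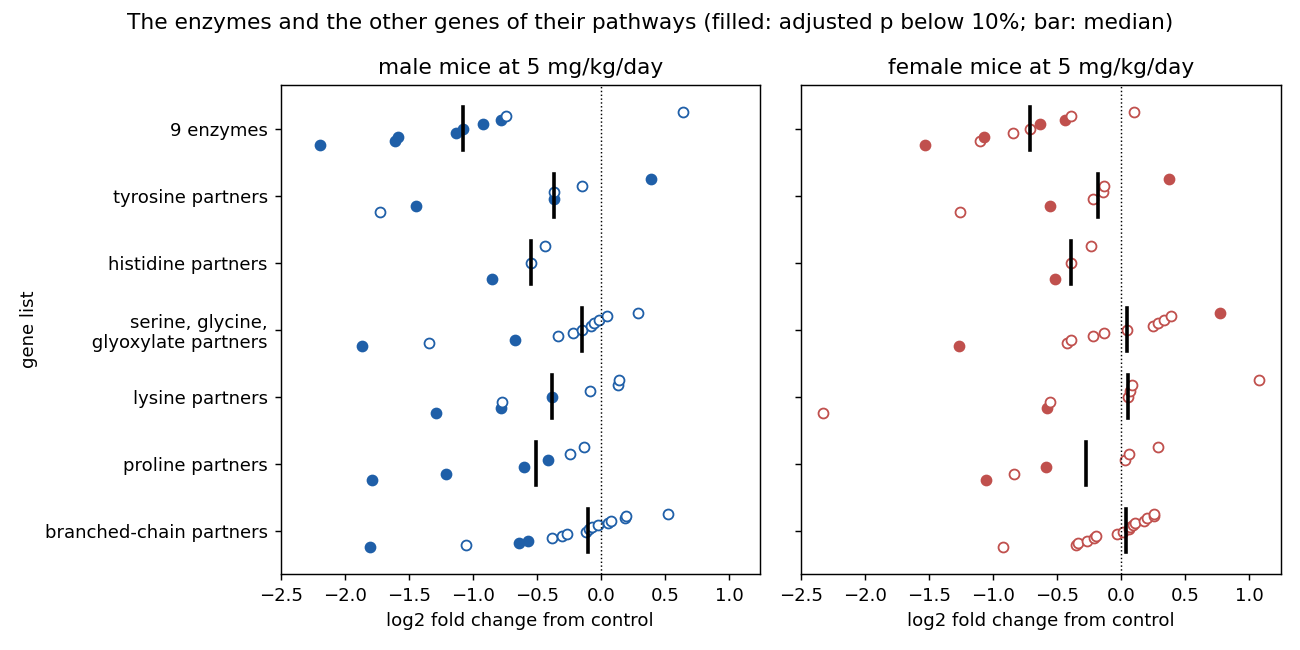
Log2 fold change at 5 mg/kg from control (horizontal axis) for the 9 enzymes and the tested genes of 6 partner lists (vertical axis), males left and females right; each point is 1 gene, filled where the adjusted p was below 10%, and the black bar is the list median. In males the bar of the 9 enzymes is at -1.08, that of the proline partners at -0.51 and that of the branched-chain partners at -0.10.

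Liver transcription factors and markers of liver zones were read in the same mice, for which the background shares given above, 3.75% lower in males and 2.00% lower in females at 5 mg/kg, also hold. Of 9 regulators 2 were lower in males at 5 mg/kg, *Hnf4a*, the nuclear receptor that maintains hepatocyte genes (-0.80, SE 0.16, adjusted p = 0.000497), and *Cebpa* (-0.81, SE 0.20, adjusted p = 0.00589), and *Hnf4a* alone was lower in females (-0.56, SE 0.16, adjusted p = 0.0439). Of 6 periportal markers 4 were lower and 1 higher in males at 5 mg/kg, and their summed level was 3890 to 5763 CPM against 8683 to 12760 CPM in control males. In females at 5 mg/kg the periportal sum was 5455 to 8236 CPM against 9968 to 14150 CPM in control females. *Ass1* and *Cps1*, the urea cycle enzymes of that list, fell by 1.29 and 1.18 on the log2 scale in males and by 0.93 and 1.02 in females, while *Hsd17b13* rose by 2.45 in males. Of 6 pericentral markers 3 were lower in males, with a summed level of 2884 to 4288 CPM against 5092 to 7911 CPM, while in females, where 3 were also lower, the sums of 4503 to 10280 CPM overlapped the controls at 5771 to 9965 CPM. The 4 hepatocyte markers with a probe summed to 9696 to 11530 CPM against 11110 to 12650 CPM in control males, and 4 proliferation genes to 23.4 to 70.7 CPM against 0 to 2.71 CPM. Of the 4 proliferation genes *Top2a* alone passed the test in males at 5 mg/kg (adjusted p = 0.0148). In control males 2 of the 4 were at 0 in every mouse, so this contrast lies near the floor. The part of zonation, cell mixture and cell division in the fall of the 9 enzymes was not tested.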

How the data were processed

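Liver RNA of 40 mice in 8 groups of 5 was measured by TempO-Seq on sections scraped from slides. The deposited values are the authors' counts of reads per probe, not normalized, for 30146 probes; the submitters' processing notes name bcl2fastq 2.17.1.14, Bowtie and mm10, and how Bowtie was set is not given in the sources used here. Doses and animal numbers came from the sample titles, which give no sex. The sex assigned to each mouse was set against Y-linked probes, which had reads in 20 of 20 male and 0 of 20 female libraries.

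Counts were fitted with edgeR 4.0.16 in R 4.3.3 (TMM scaling, filterByExpr, quasi-likelihood F-test, all 8 groups in one fit of 39 libraries). P-values were adjusted by Benjamini-Hochberg over the 17877 probes tested and called below 10%. Each gene was read on its most counted probe, and 12412 genes had one that was tested. CPM put the TMM-adjusted libraries on one common total, log2 CPM used a prior count of 2, and SEs and 95% intervals follow from the F statistics. DESeq2 1.42.0 was an alternative. The fit was tested on simulated data with known changes.

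Of the 40 libraries, 39 held 10341341 to 15562253 reads and animal 355 was left out for depth. Reads were taken as copies of far fewer captured molecules, estimated from the peak of the histogram of low counts. On that estimate, which was not tested, counting precision follows the molecules. Replicates are separate mice.

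The members and gene lists were chosen with earlier results of these data known. All 9 enzymes were named in full; of other lists at most the 3 genes with the smallest p per comparison, and for each enzyme the genes with the highest Pearson r. The genes named from the zone, hepatocyte and regulator lists beyond this rule were named after their values were seen. So were *Grhpr* and *Aadat* as called higher, and *Aldh4a1* and *Prodh2* as not called. Gene positions are from GENCODE M21 on GRCm38. Some genes that this rule names are not reported here.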

Additional observations from a re-analysis of the deposited data

Results flagged for a closer look

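Among 80 sets of values of 1 group (9 enzymes and their mean in 8 groups), 5 held a mouse whose gap to the others was above Dixon's 95% critical value, which chance gives in about 1 in 20 sets. *Tat* read 63.9 CPM in control male 105, against 10.8 to 22.6 CPM in the other 4. *Tat* read 8.39 CPM in female 351 at 0.5 mg/kg, against 19.5 to 21.7 CPM in the other 3. *Hpd* read 14778 CPM in female 255 at 0.1 mg/kg, against 8019.5 to 9647 CPM. *Sds* read 26.2 CPM in male 305 at 0.5 mg/kg, against 61.7 to 75.8 CPM. The mean log2 CPM of the 9 enzymes was 5.85 in female 452 at 5 mg/kg, against 6.84 to 6.98 in the other 4. Without that mouse 2 rather than 4 enzymes were called lower in females at 5 mg/kg. The share of all genes called in that fit was not counted, so this fall stands without a background.

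The change at 5 mg/kg differed between females and males on 2 of the 17 probes, where 186 of all 17877 probes tested were called. The difference was 0.98 on the log2 scale for the second *Fah* probe and 1.14 for the third *Hpd* probe. The most counted probes of both genes gave 0.68 and 0.48 and did not pass. The cause of the difference between probes was not tested.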

How the results depend on the processing

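The number of enzymes called was set against 8 other settings (DESeq2, DESeq2 size factors in edgeR, no filter, all 40 libraries, the groups compared alone, probes summed by gene, a false discovery rate of 5%, and counts in molecules, the last chosen after seeing the data) and fits without each of 39 mice. For males at 5 mg/kg the 7 calls were 5 to 7 over the settings and 6 to 7 without 1 mouse. No value of an enzyme that was called in either fit changed sign. In males at 0.5 mg/kg the 1 call became 3 with DESeq2, 2 with its size factors, 2 without the filter, 0 with all 40 libraries, 4 with the 2 groups alone, 2 with probes summed and 4 in molecules, and 0 to 2 without 1 mouse. In females at 5 mg/kg the 4 became 1 with all 40 libraries, 2 with the 2 groups alone, 2 at 5%, 3 with DESeq2, 3 with its size factors, and 5 without the filter, with probes summed or in molecules, and 2 to 5 without 1 mouse. The 0 differences between the sexes at 5 mg/kg became 2 with DESeq2, 2 with its size factors, 3 without the filter, 2 with probes summed and 3 in molecules, and 0 to 1 without 1 mouse. From 0.5 to 5 mg/kg the 5 male calls became 2 with all 40 libraries (4 to 6 without 1 mouse), and the 1 female call 0 with all 40 libraries and 0 with the 2 groups alone (0 to 1 without 1 mouse). The 1 call between control sexes became 0 with all 40 libraries (0 to 1 without 1 mouse). The share of all genes called was not counted in these other fits, so these counts stand without a background. The cause of these shifts was not tested. The mean log2 CPM of the enzymes moved by less than 1 SD under another prior count or scaling.

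By the estimate of captured molecules, which was not tested, *Hgd* and *Tat* were the most thinly counted, at medians of 2.61 and 9 molecules per library. No paired analysis was possible because each animal number occurs in 1 group only.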
